A study of Arabidopsis thaliana with 20 samples.

Results

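The comparison concerned the bases of the Arabidopsis genome at which histone H3 coverage was deposited for both cmt3 and met1-3 plants. The H3 tables cover windows around differentially methylated regions (DMRs), and each mutant has only the windows around its own DMRs. A base was a member where a cmt3 window and a met1 window, of any cytosine context, both contained it. This gave 1226994 distinct shared bases of the 21850551 bases in any H3 table of the series. They made up 50.8% of the 2415937 bases in cmt3 windows and 7.03% of the 17450911 bases in met1 windows. The shared bases lay in 1306 blocks on all 5 chromosomes and held 23260 complete bins of 50 bp.

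The 3 groups compared were cmt3 plants, met1-3 plants and wild-type Col-0 plants. Each had 2 libraries, which the deposited tables combine into 1 profile. All were of the Columbia ecotype, and mature leaves were taken at an age of 3.5 weeks. Leaf chromatin was cut with micrococcal nuclease (MNase), which spares DNA wrapped around nucleosomes, and fragments bound to H3 were recovered with an antibody and sequenced in pairs. The labels give no allele for cmt3, and neither the zygosity nor the generation of either mutant, nor how many plants made up a library. Genotypes were taken from the labels, and no expression or methylation data of these mutants were used here.

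CMT3 and MET1 are DNA methyltransferases that copy existing methylation after replication. MET1 keeps methylation at CG sites, along genes and transposons. CMT3 is recruited to nucleosomes methylated at lysine 9 of H3 and keeps methylation at CHG sites, where H is A, C or T, mostly in transposons and repeats near the centromeres. CHH methylation is mainly set by DRM2 and CMT2. The labels do not say in which direction methylation differed at a DMR, so a DMR is used here as a position only.

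Coverage was the number of fragments over a base. Isolated stretches covered by 1 fragment had a median length of 159 bp in cmt3, 160 bp in met1-3 and 160 bp in Col-0, close to the DNA of 1 nucleosome, so adjacent bins share fragments. Mean coverage over the shared bases was 7.41 fragments in cmt3, 4.66 in met1-3 and 11.8 in Col-0. No fragment covered 40.6% of the shared bases in cmt3, 35.8% in met1-3 and 27.8% in Col-0. To compare genotypes, cmt3 coverage was divided by 0.628 and met1-3 coverage by 0.448, the ratios of their summed coverage to that of Col-0 over the 14400 bins outside every DMR of cmt3, met1 and drm2, another methyltransferase mutant of the same set. All levels below called scaled are on this Col-0 scale. With 1 combined profile per genotype there was no replicate spread and no test. In place of an error, each ratio is given with its lowest and highest value by chromosome, where every chromosome was scaled separately by its bins outside DMRs. Chromosomes come from the same libraries and are not replicates.

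The bins fell into classes by the DMRs that contain them. In 2098 bins inside a cmt3 DMR but no met1 DMR, scaled H3 coverage averaged 8.58 in cmt3, 12.3 in met1-3 and 11.0 in Col-0. There cmt3 was the lowest of the 3 genotypes, with a log2 ratio of summed coverage to met1-3 of -0.52 (chromosomes -0.56 to -0.47). In 4936 bins inside a met1 DMR but no cmt3 DMR, the means were 22.8 in cmt3, 16.2 in met1-3 and 21.6 in Col-0. There met1-3 was the lowest, and the log2 ratio of cmt3 to met1-3 was 0.50 (0.33 to 0.73). In 1594 bins inside DMRs of both mutants, the means were 20.8 in cmt3, 16.6 in met1-3 and 21.7 in Col-0, with a log2 ratio of cmt3 to met1-3 of 0.32 (0.15 to 0.48). So the direct ratio had opposite signs in the DMRs of one mutant alone, on all 5 chromosomes in each class. In bins inside DMRs of both it stood on the side of the met1 DMRs.

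**Figure D1:**
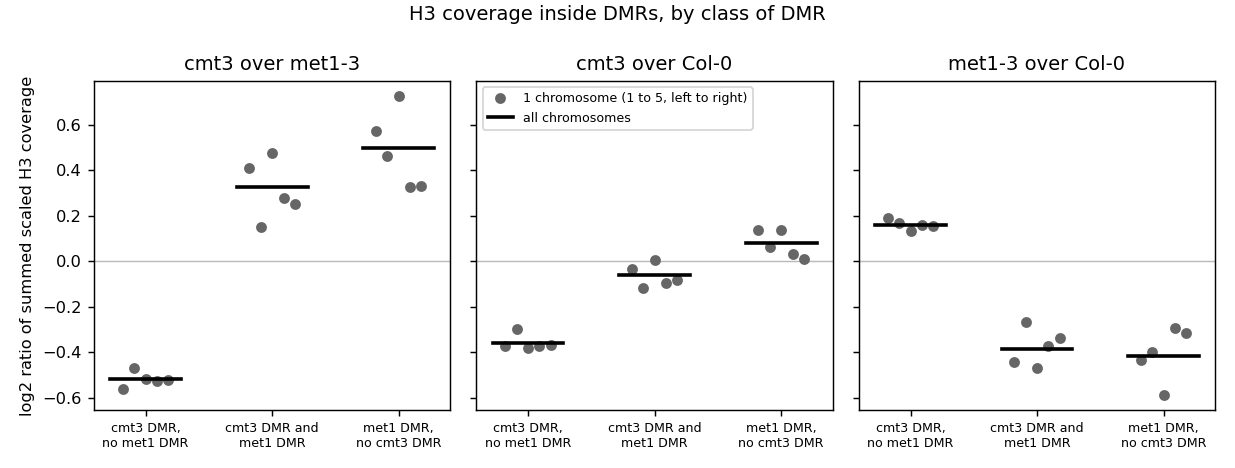
Log2 ratio of summed scaled H3 coverage (y axis) in the 3 classes of bins inside DMRs (x axis) for the 3 comparisons; each point is 1 chromosome scaled on its own outside bins and each bar is the value over all chromosomes. The cmt3 over met1-3 value is -0.52 in cmt3 DMRs alone and 0.50 in met1 DMRs alone, with the points of each on one side of 0.

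Set against Col-0, each mutant was lower in DMRs of its own alone. In DMRs of both, met1-3 was lower and cmt3 was near Col-0. In cmt3 DMRs alone, the log2 ratio to Col-0 was -0.36 in cmt3 (-0.38 to -0.30) and 0.16 in met1-3 (0.13 to 0.19). In met1 DMRs alone it was 0.08 in cmt3 (0.01 to 0.14) and -0.42 in met1-3 (-0.59 to -0.30). In DMRs of both it was -0.06 in cmt3 (-0.12 to 0.01) and -0.39 in met1-3 (-0.47 to -0.27). These pairs share the Col-0 libraries as denominator. The small ratios above 0 depend on the scaling. The 0.16 of met1-3 in cmt3 DMRs alone became -0.05 with a median ratio, -0.06 with TMM (trimmed mean of ratios) and -0.06 with outside bins at least 200 bp from any DMR. The 0.08 of cmt3 in met1 DMRs alone became -0.12 with the median ratio. Those 3 scalings moved all ratios of met1-3 to Col-0 by -0.22 to -0.21, so met1-3 values between 0 and that size turn below 0 under them. TMM moved all ratios of cmt3 to met1-3 by 0.29 and the distant outside bins moved them by 0.19, so values between -0.29 and 0 turn above 0 with TMM.

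Counted by bins, a difference of 2-fold or more between scaled levels, with a pseudocount of 1, was the threshold. Over all 23260 shared bins, 21.3% were lower and 13% were higher in cmt3 than in met1-3 by that measure. Of the bins in cmt3 DMRs alone, 47.0% were lower and 4.81% were higher in cmt3. Of those in met1 DMRs alone, 8.87% were lower and 23.6% were higher in cmt3. In DMRs of both, 16.4% were lower and 14.6% were higher, so higher bins did not outnumber lower ones there although the summed ratio was above 0. Set against all shared bins, that class had a smaller share of lower bins and a slightly larger share of higher ones. Outside all DMRs, 22.6% were lower and 10.2% were higher in cmt3. Against Col-0, 19.2% of all shared bins were lower in cmt3 and 5.49% higher, while 15.3% were lower in met1-3 and 11.3% higher. Within cmt3 DMRs alone, 38.8% of bins were lower in cmt3 than in Col-0 and 10.7% were lower in met1-3 than in Col-0. Within met1 DMRs alone, 11.9% were lower in cmt3 than in Col-0 and 23.9% were lower in met1-3 than in Col-0.

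Runs of adjacent bins of 1 class were also taken as single places, since neighbours share fragments. Of 952 places in cmt3 DMRs alone, cmt3 was below met1-3 at 624 and above it at 220. Of 1838 places in met1 DMRs alone, cmt3 was below at 557 and above at 1084. Of 751 places in DMRs of both, cmt3 was below at 279 and above at 372. Of 3072 places outside all DMRs, cmt3 was below at 1518 and above at 1173. The places in the DMRs of one mutant thus leaned to opposite sides, and those outside leaned as the cmt3 DMRs did, but less.

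The cytosine context of the DMR separated the cmt3 bins further. In 1175 bins inside a cmt3 CHH DMR, scaled coverage averaged 2.44 in cmt3, 5.95 in met1-3 and 5.64 in Col-0. The log2 ratio of cmt3 to met1-3 there was -1.29 (-1.51 to -1.08) and that of cmt3 to Col-0 was -1.21 (-1.50 to -0.96), while met1-3 over Col-0 was 0.08 (-0.01 to 0.14). In these CHH DMRs 57.5% of bins held no fragment in cmt3, against 35.4% in met1-3 and 25% in Col-0. In 2552 bins inside a cmt3 CHG DMR, the context that CMT3 itself maintains, the means were 18.8 in cmt3, 18 in met1-3 and 20.1 in Col-0, and cmt3 over met1-3 was 0.06 (-0.05 to 0.20). The bins of CHG DMRs were thus richer in H3 in every genotype than those of CHH DMRs, and the deficit in cmt3 was large in the CHH bins and small in the sum over CHG bins. In 123 bins inside a cmt3 CG DMR, cmt3 over met1-3 was -0.02 (-1.32 to 0.25), with both mutants below Col-0, at -0.49 in cmt3 and -0.47 in met1-3.

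The near-equal sums in cmt3 CHG DMRs combined parts of opposite sign. In 1358 bins in a cmt3 CHG but no CHH DMR and in no met1 DMR, the means were 12.1 in cmt3, 15.5 in met1-3 and 14.0 in Col-0, with cmt3 over met1-3 at -0.36 (-0.44 to -0.24). In 1064 such bins that were also in a met1 DMR, the means were 28.9 in cmt3, 21.8 in met1-3 and 28.8 in Col-0, with cmt3 over met1-3 at 0.41 (0.26 to 0.57). In the second set cmt3 over Col-0 was 0.00, so nearly all of the direct ratio lay between met1-3 and Col-0. In 631 bins in a cmt3 CHH but no CHG DMR and in no met1 DMR, the means were 1.77 in cmt3, 5.59 in met1-3 and 4.76 in Col-0. Their cmt3 over met1-3 value, -1.66 (-1.83 to -1.56), was the lowest of the sets split by context. In 414 CHH bins that were also in a met1 DMR it was -0.77, over a wide chromosome range of -1.14 to 0.12.

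Among met1 DMRs, 4241 bins in CG DMRs, the context that MET1 maintains, averaged 29.1 in cmt3, 20.8 in met1-3 and 27.8 in Col-0. Their cmt3 over met1-3 value was 0.49 (0.31 to 0.70). In 767 bins where a met1 CHH DMR coincided with a CG or CHG DMR it was 0.68 (0.37 to 0.96), with means of 27.5 in cmt3, 17.2 in met1-3 and 26.9 in Col-0. In 1657 bins in a met1 CHH DMR alone it was 0.07 (-0.16 to 0.26), with means of 5.69 in cmt3, 5.41 in met1-3 and 6.18 in Col-0. CHH DMRs of met1 on their own therefore held little H3 in any genotype, as the CHH DMRs of cmt3 did, but without a gap between the mutants.

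The H3 level of a bin in Col-0 moved with these ratios and differed between the classes. Outside all DMRs, cmt3 over met1-3 was -0.91 in bins with a Col-0 coverage of 2 to under 5, -0.58 at 5 to under 10, -0.07 at 10 to under 20, 0.32 at 20 to under 50 and 0.54 at 50 or more. Most of that gradient lay in met1-3, whose log2 ratio to Col-0 outside DMRs was 0.52 in the lowest of these ranges and -0.52 in the highest. That of cmt3 to Col-0 was -0.40 in the lowest range and 0.01 in the highest. Col-0 coverage both sorted the bins and was the denominator of these ratios, but not of the ratio between the mutants. So bins that are poor in H3 in Col-0 held relatively more of the met1-3 coverage than bins that are rich in it, also where no DMR was called. The part of this gradient in the class values was not tested. The values within each range of Col-0 coverage are given instead.

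In cmt3 DMRs alone, cmt3 over met1-3 was -1.99 at a Col-0 coverage of 2 to under 5 (-2.96 to -1.68), -1.54 at 5 to under 10 (-2.07 to -1.32) and -0.89 at 10 to under 20 (-1.08 to -0.71). It was -0.07 at 20 to under 50 (-0.17 to 0.02) and 0.34 at 50 or more (0.24 to 0.50). Each was below the value outside DMRs at the same coverage, and the chromosome ranges of the 2 sets did not overlap in the first 4 of these coverage ranges. In met1 DMRs alone, cmt3 over met1-3 was 0.15 at 2 to under 5, 0.15 at 5 to under 10, 0.51 at 10 to under 20, 0.54 at 20 to under 50 and 0.51 at 50 or more. Below 50 it stood above the value outside DMRs at the same coverage, and at 50 or more it did not. In DMRs of both mutants it was -0.69, -0.35, -0.11, 0.39 and 0.48 over the same 5 ranges, between the values of the other 2 classes in each range. It was thus above 0 only where Col-0 coverage was 20 or more.

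**Figure D2:**
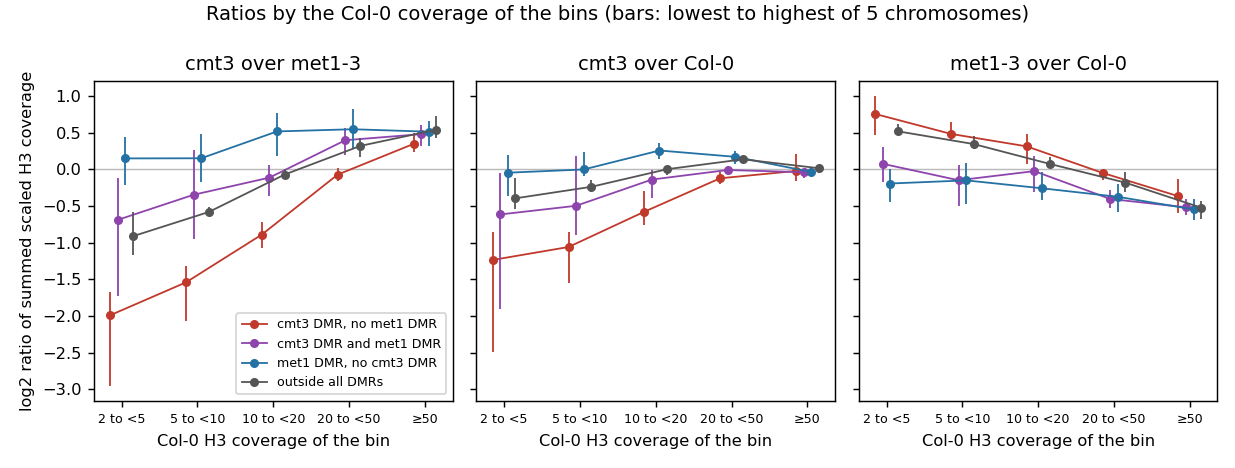
Log2 ratio of summed scaled coverage (y axis) by the Col-0 coverage of the bins (x axis, 5 ranges) for 4 classes of bins; points are values over all chromosomes and vertical lines run from the lowest to the highest chromosome. In the cmt3 over met1-3 panel the 4 classes are spread from -1.99 to 0.15 at the lowest coverage and from 0.34 to 0.54 at the highest.

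Within cmt3 CHH DMRs the deficit of cmt3 was large over most of the coverage range. The cmt3 over met1-3 ratio was -1.95 at a Col-0 coverage of 2 to under 5, -1.85 at 5 to under 10, -1.30 at 10 to under 20 and -0.71 at 20 to under 50, the last on 58 bins with chromosomes from -0.97 to 0.94. In cmt3 CHG DMRs without a CHH DMR it was -1.45, -1.02, -0.46 and 0.27 over the same ranges. At matched Col-0 coverage, the CHH DMRs of cmt3 thus lay further below met1-3 than its CHG DMRs did.

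By region, pericentromeres were set as whole-Mb intervals around the centromeres, which are dense in transposons and repeats, and held 16674 of the shared bins. In cmt3 DMRs alone, cmt3 over met1-3 was -0.41 in pericentromeres (1319 bins) and -0.85 in the arms (779 bins), and -0.45 and -0.66 with each region's own scaling. In met1 DMRs alone it was 0.53 in pericentromeres (3979 bins) and 0.24 in the arms (957 bins), but 0.50 and 0.42 when each region was scaled on its own outside bins. In DMRs of both it was 0.40 in pericentromeres (1040 bins) and -0.10 in the arms (554 bins); with each region's own scaling these were 0.37 and 0.08. Bins outside DMRs also differed by region, at 0.04 in pericentromeres and -0.18 in the arms, with Col-0 means of 8.80 and 4.53.

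Bins outside all DMRs but close to one were compared by their gap to it. Within 100 bp of a cmt3 CHH DMR, scaled coverage averaged 1.5 in cmt3, 3.71 in met1-3 and 3.10 in Col-0 over 815 bins. The log2 ratio to Col-0 there was -1.04 in cmt3 (-1.41 to -0.76) and 0.26 in met1-3 (0.10 to 0.32). With increasing gap, in steps of 100 bp, cmt3 over Col-0 was -0.67, -0.36, -0.33 and, at 400 to under 500 bp, -0.40 (-0.56 to -0.22). The deficit of cmt3 was thus deepest next to the CHH DMRs. The bins at 400 to under 500 bp had a Col-0 mean of 1.88. For comparison, all bins outside DMRs were at -0.40 where Col-0 coverage was 2 to under 5 and at -0.21 where it was above 0 and under 2. Near cmt3 CHG DMRs it was slight, at -0.08 within 100 bp and between 0.03 and 0.06 further out. Near met1 CG DMRs, met1-3 over Col-0 was -0.18 within 100 bp (-0.26 to -0.08) and 0.24 at 400 to under 500 bp (0.16 to 0.42). The Col-0 mean of these bins was 13.0 within 100 bp and 6.14 at 400 to under 500 bp. In all bins outside DMRs, met1-3 over Col-0 was 0.07 at a Col-0 coverage of 10 to under 20 and 0.34 at 5 to under 10. Each gap group mixes bins of many coverages, so single ranges of coverage are not matched to it, here or near cmt3 CHH DMRs. All bins outside DMRs together had a Col-0 mean of 7.55 and, by the scaling, a ratio of 0. The part of coverage in this change with distance was not tested. A fragment over a DMR reaches into the bins within 100 bp, so the nearest values are not independent of the DMR.

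**Figure D3:**
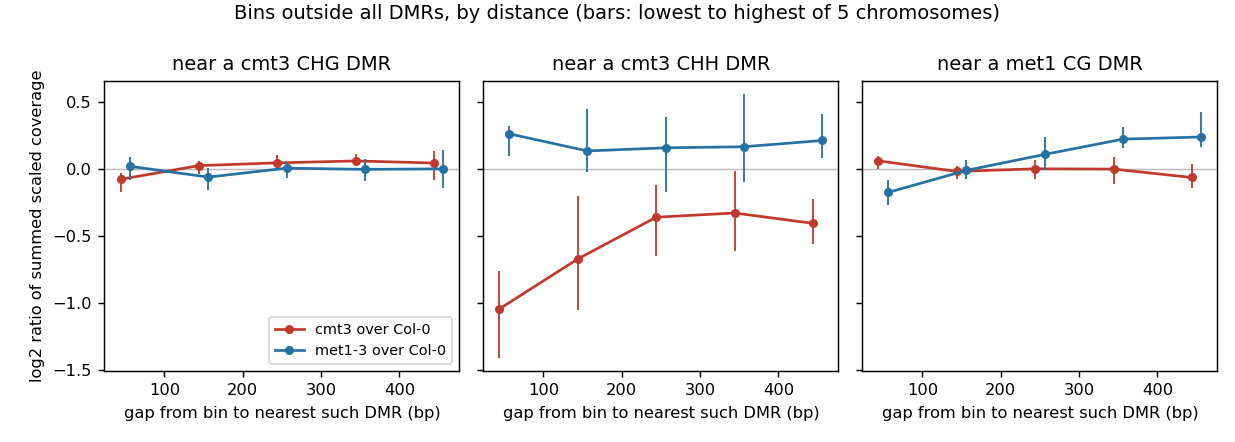
Log2 ratio to Col-0 (y axis) in bins outside all DMRs, by their gap to the nearest cmt3 CHG, cmt3 CHH or met1 CG DMR (x axis, bp, 5 steps); points are values over all chromosomes and lines run from the lowest to the highest chromosome. Near cmt3 CHH DMRs the cmt3 points sit between -1.04 and -0.33, below every met1-3 point.

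Profiles were drawn over DMRs whose whole window was shared. These were 900 of 2761 cmt3 CHG DMRs without a CHH DMR and 367 of 1777 cmt3 CHH DMRs without a CHG DMR. Of the 26509 met1 CG DMRs without a CHH DMR they were only 682. Around 900 cmt3 CHG DMRs without a CHH DMR, coverage over the DMR averaged 24.2 in cmt3, 20.4 in met1-3 and 24.8 in Col-0. That was 1.60 times the level of the outer 200 bp on each side in cmt3, 1.63 times in met1-3 and 1.67 times in Col-0. Around 682 met1 CG DMRs without a CHH DMR the ratio of DMR to outer flank was 1.91 in cmt3, 1.76 in met1-3 and 1.94 in Col-0. In these windows both kinds of DMR were centred on a rise in H3 coverage in all 3 genotypes. Over the met1 CG DMRs the rise was smallest in met1-3. The met1-3 level was lowest in these CHG windows, but highest, at 15.5, in the 1358 cmt3 CHG bins outside CHH and met1 DMRs. Around 367 cmt3 CHH DMRs without a CHG DMR, the level was 2.52 in cmt3, 5.06 in met1-3 and 5.25 in Col-0, and the ratio of DMR to outer flank was 0.98 in cmt3, 1.05 in met1-3 and 1.26 in Col-0. These windows had no central peak in cmt3, and cmt3 was low across their whole width.

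**Figure D4:**
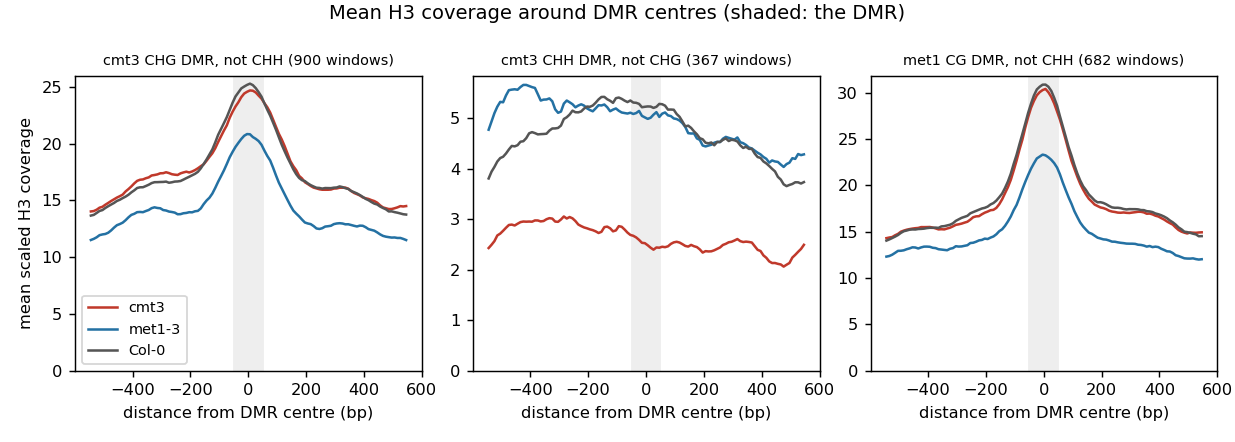
Mean scaled H3 coverage (y axis, fragments on the Col-0 scale) by distance from the DMR centre (x axis, bp) in cmt3, met1-3 and Col-0, for windows shared in full; grey marks the DMR. Over the CHG and CG DMRs of these windows the 3 lines rise to a common central peak with met1-3 lowest. Over the CHH DMRs cmt3 averages 2.52 where met1-3 averages 5.06 and Col-0 5.25.

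The summit of coverage near the DMR centre was located in windows with a mean of at least 5 in every genotype, after smoothing over 41 bp. In 456 windows of cmt3 CHG DMRs without a CHH DMR, the median offset between the cmt3 and met1-3 summits was 0 bp, and 55.0% lay within 20 bp of each other. The cmt3 summit was within 20 bp of the Col-0 summit in 63.8% of these windows, and the met1-3 summit in 56.1%. In 357 windows of met1 CG DMRs without a CHH DMR, 55.5% of cmt3 and met1-3 summits lay within 20 bp. Against Col-0 this was 64.1% for cmt3 and 59.7% for met1-3. The summit of a thinner profile is located less precisely, and met1-3 had the lowest coverage, so these shares do not rank the mutants.

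Reference annotation was matched by locus tag. Each bin was assigned by its middle base. That base lay within an annotated pseudogene in 55.6% of the shared bins, a class in which this annotation counts many transposon genes. It lay within a protein-coding gene in 9.07% and in no gene in 34.6%. Counted by any overlap, 960 genes touched shared bins, of which 676 were pseudogenes and 209 protein-coding. Classes are given by these 3 kinds of place. In cmt3 DMRs alone, cmt3 over met1-3 was -1.0 in protein-coding genes (202 bins), -0.50 in pseudogenes (1379 bins) and -0.39 where no gene is annotated (499 bins). In met1 DMRs alone it was 0.41 (317 bins), 0.50 (3203 bins) and 0.54 (1383 bins). In other RNA genes, with 33 bins in met1 DMRs alone, it was 0.04 (-0.20 to 0.52), and 27.3% of these bins were lower and 6.06% higher in cmt3 by 2-fold or more. None of 19 loci known for silencing or imprinting by methylation, among them FWA and SDC, held a shared bin.

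For 346 genes with at least 20 shared bins, a set chosen after values had been seen, the ratio of summed coverage was taken over the gene's shared bins. With 286 of them at a Col-0 mean of at least 5, cmt3 was below met1-3 in 122 and above in 164, by 2-fold or more in 27 and 15. With 98 at a Col-0 mean of at least 20, cmt3 was below in 9 and above in 89, and by 2-fold or more in 0 and 6. The gene values thus followed the same gradient with Col-0 coverage as the bins. The 3 genes furthest below, among the 286, had many bins in cmt3 CHH DMRs. Pseudogene AT5G53135 averaged 1.19 in cmt3, 6.89 in met1-3 and 6.10 in Col-0 over 24 bins, 21 of them in cmt3 CHH DMRs. Pseudogene AT3G43688 averaged 2.03 in cmt3, 9.59 in met1-3 and 7.87 in Col-0 over 21 bins, and protein-coding AT5G18636 averaged 1.25 in cmt3, 5.78 in met1-3 and 6.37 in Col-0 over 20 bins. In all 3 the met1-3 level was near that of Col-0.

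The 3 genes furthest above, among the 286 with a Col-0 mean of at least 5, were pseudogenes with a deficit in met1-3. AT3G43681 averaged 37.4 in cmt3, 5.69 in met1-3 and 36.3 in Col-0 over 21 bins, 17 of them in met1 DMRs. AT3G45775 averaged 18.3 in cmt3, 5.44 in met1-3 and 17.3 in Col-0 over 58 bins, 46 of them in met1 DMRs. AT5G12085 averaged 14.0 in cmt3, 4.67 in met1-3 and 11.7 in Col-0 over 27 bins, of which 4 lay in met1 DMRs and 5 in cmt3 DMRs. Here cmt3 was near Col-0 and met1-3 stood apart. The 3 genes with the most shared bins had no common direction. Pseudogene AT1G47950, with 105 bins, averaged 9.30 in cmt3, 12.8 in met1-3 and 11.7 in Col-0. Pseudogene AT2G05110, with 82 bins, averaged 8.68 in cmt3, 7.78 in met1-3 and 9.29 in Col-0. The RNA gene AT3G00470, with 91 bins that overlap pseudogene AT3G28153, averaged 6.88 in cmt3, 10.8 in met1-3 and 9.08 in Col-0. Of 33 protein-coding genes with a value, at any Col-0 mean, cmt3 was below met1-3 in 19 and above in 14, by 2-fold or more in 8 and 4. Of all 343 genes with a value, it was below in 159 and above in 184, by 2-fold or more in 50 and 21. The 4 with a gene symbol and a Col-0 mean of at least 5 are described here, a choice made after the values were seen. PPME1, a pectin methylesterase of pollen, averaged 6.39 in cmt3, 9.66 in met1-3 and 8.91 in Col-0 over 29 bins. AGL92, a MADS-box gene, averaged 17.5 in cmt3, 23.3 in met1-3 and 22.4 in Col-0 over 24 bins. ADR1-L3, of a family of immune receptors, averaged 9.23 in cmt3, 10.5 in met1-3 and 6.88 in Col-0 over 22 bins. CSLD6, a cellulose synthase-like gene, averaged 19.1 in cmt3, 16.6 in met1-3 and 9.78 in Col-0 over 21 bins. The first 3 of these had less coverage in cmt3 than in met1-3 and the last had more.

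Single bins with the most extreme ratios were then read at the level of fragments. They were taken from bins inside a cmt3 or met1 DMR with enough coverage, by the values themselves, so they are descriptions. Coordinates are on TAIR10, 1-based, and values are unscaled fragments per base. At equal scaled levels, cmt3 would hold 58.3% of the fragments of the 2 mutants. The 4 bins furthest below met1-3 were all in cmt3 CHG DMRs outside any met1 DMR. Of bins inside DMRs at any coverage, 2098 lay in cmt3 DMRs alone, 4936 in met1 DMRs alone and 1594 in both. The shares among the 3129 candidate bins for this ratio are not given here. In pseudogene AT5G27947 (chromosome 5, 9981901 to 9981950) coverage was 2.64 in cmt3, 19.3 in met1-3 and 11.1 in Col-0. At its central base cmt3 held 3 fragments and met1-3 held 19, a cmt3 share of 13.6% (95% Clopper-Pearson interval 2.91% to 34.9%). Pseudogene AT2G10250 (chromosome 2, 3921651 to 3921700) had 2.80 in cmt3, 18.4 in met1-3 and 18.2 in Col-0. Protein-coding AT2G17920 (chromosome 2, 7783101 to 7783150) had 3.36 in cmt3, 18.9 in met1-3 and 15.5 in Col-0. Pseudogene AT5G29465 (chromosome 5, 11181351 to 11181400) had 9.04 in cmt3, 34.1 in met1-3 and 25.3 in Col-0. In each, met1-3 had more fragments than Col-0 despite its lower depth, and cmt3 fewer than its depth would give. The log2 ratios of scaled levels with a pseudocount of 1 were between -3.08 and -2.32 for cmt3 over met1-3.

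The 4 bins furthest above met1-3 were all on chromosome 3, in pericentromeric met1 DMRs. Of all 23260 shared bins, 6063 lay on chromosome 3 and 71.7% in pericentromeres. At a Col-0 coverage of 20 to under 50, 1241 bins lay in met1 DMRs alone, 278 in cmt3 DMRs alone and 426 in both. At 50 or more these were 768, 72 and 237, so most DMR bins of high coverage lay in met1 DMRs. In pseudogene AT3G43302 (15247051 to 15247100) coverage was 27.4 in cmt3, 0 in met1-3 and 29.8 in Col-0. Against a floor of 3 fragments in met1-3, scaled cmt3 coverage at the central base was at least 6.43-fold higher. In pseudogene AT3G45775 (16811351 to 16811400) it was 20.9 in cmt3, 0.50 in met1-3 and 28.7 in Col-0. Between pseudogenes AT3G32383 and AT3G32385 (13318201 to 13318250) it was 27.9 in cmt3, 1.10 in met1-3 and 34.1 in Col-0. In protein-coding AT3G43148 (15141901 to 15141950) it was 21.0 in cmt3, 1.0 in met1-3 and 25.1 in Col-0. These 4 bins had next to no fragments in met1-3. Once scaled, cmt3 was above Col-0 in each, with log2 ratios between 0.21 and 0.54. At the central base of the fourth bin cmt3 held 21 of 22 fragments, a share of 95.5% (77.2% to 99.9%). Intervals and floors cover counting error only and no spread between plants or libraries, since each genotype had 1 combined profile. Fragments carried no molecular identifiers, so counting error too may be understated.

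**Figure D5:**
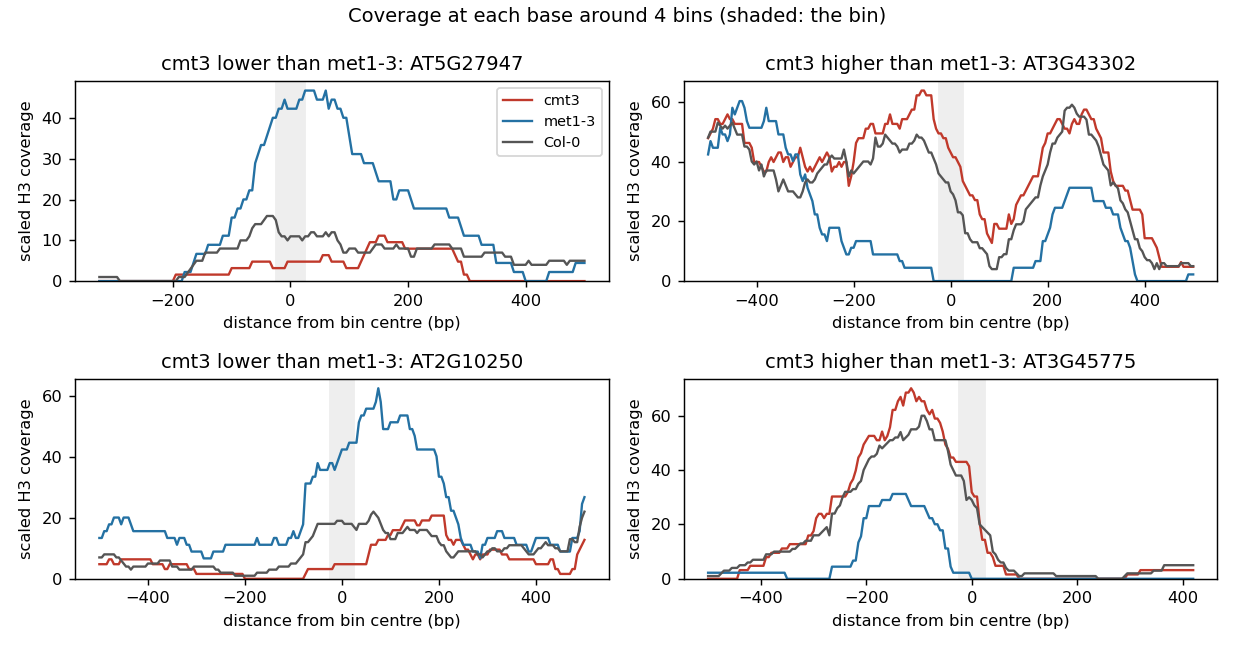
Scaled H3 coverage at each base (y axis) by distance from the centre of 4 single bins (x axis, bp; grey marks the bin) in cmt3, met1-3 and Col-0: the 2 bins with cmt3 furthest below met1-3 (left) and the 2 furthest above (right). In the bins on the left, scaled coverage is 4.21 and 4.46 in cmt3 and 43.1 and 41.1 in met1-3; on the right it is 43.7 and 33.4 in cmt3 and 0 and 1.11 in met1-3.

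Against Col-0, the 4 bins with the largest deficits are given for each mutant, out of 3022 candidate bins. For cmt3 the lowest lay between AT5G27947 and AT5G27950 (chromosome 5, 9983101 to 9983150), with 0 in cmt3, 2.00 in met1-3 and 21.7 in Col-0, at least 4.60-fold lower in cmt3 than in Col-0 at the central base. Next was pseudogene AT2G20460 (chromosome 2, 8816401 to 8816450), with 0.16 in cmt3, 9.58 in met1-3 and 21.4 in Col-0. A bin between AT1G43715 and AT1G43720 (chromosome 1, 16491601 to 16491650) had 1.0 in cmt3, 5.68 in met1-3 and 28.8 in Col-0. Pseudogene AT1G62460 (chromosome 1, 23119251 to 23119300) had 1.52 in cmt3, 7.10 in met1-3 and 24.6 in Col-0. In the second of these met1-3 was at the Col-0 level once scaled. In the other 3 met1-3 was lower than Col-0 as well, with log2 ratios between -2.05 and -0.60.

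For met1-3 the lowest was another bin of AT3G43302 (chromosome 3, 15249051 to 15249100), with 25.1 in cmt3, 0 in met1-3 and 37.2 in Col-0. AT3G43681 (chromosome 3, 15583551 to 15583600) had 17 in cmt3, 0 in met1-3 and 35.3 in Col-0. AT5G12085 (chromosome 5, 3906751 to 3906800), in a cmt3 CHG DMR and no met1 DMR, had 12.6 in cmt3, 0 in met1-3 and 21.6 in Col-0. AT3G45775 (chromosome 3, 16809751 to 16809800) had 10.8 in cmt3, 0.22 in met1-3 and 21.2 in Col-0. In these 4 bins cmt3 was near Col-0, with log2 ratios of scaled levels between -0.37 and 0.10.

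Increases over Col-0 are given for bins named by the same rule, whose minimum of 20 in Col-0 leaves out bins that are low in Col-0 and high in a mutant, so their size cannot be set against that of the deficits. For cmt3 the highest lay between AT5G06040 and AT5G06043 (chromosome 5, 1816801 to 1816850), with 38.5 in cmt3, 10.3 in met1-3 and 24.8 in Col-0, a log2 ratio of 1.27. The next 3, between AT4G10050 and AT4G10060 and in pseudogenes AT3G42383 and AT5G35048, were between 1.12 and 1.17. All 4 were in met1 CG DMRs, which also held most of the 3022 candidate bins. Of these candidates, 1398 with a Col-0 coverage of 20 to under 50 and 888 with 50 or more lay in met1 CG DMRs. For met1-3 the highest were the AT5G29465 bin described above, at 1.55, and bins in AT5G35413, between AT2G11730 and AT2G11740, and in AT5G35048, between 1.04 and 1.17. The first 3 of these were in cmt3 CHG DMRs, the second of them in a met1 CHH DMR too. The AT5G35048 bin was high in both mutants, with 31.6 in cmt3, 21.3 in met1-3 and 22.6 in Col-0.

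Complete loss of coverage was rare. Of 4698 bins where Col-0 coverage reached 20, 2 were without any fragment in cmt3 and 6 without any in met1-3. Both cmt3 bins were adjacent, on chromosome 5, in cmt3 CHG and CHH DMRs. Of the 6 met1-3 bins, 5 lay on chromosome 3, 4 of them in AT3G43302. None was at 0 in both mutants. At these 8 bins drm2 libraries of the same set held between 29.3 and 41.9 fragments per base. Of 7332 bins where it reached 10, 47 were at 0 in cmt3 and 33 in met1-3. Among the 47 at 0 in cmt3, 24 were in a cmt3 DMR, 6 in a met1 DMR and 21 outside all DMRs. Among the 33 at 0 in met1-3, 4 were in a cmt3 DMR, 20 in a met1 DMR and 11 outside all DMRs. A bin may lie in DMRs of both mutants. Of all 7332 bins, 21.6% were in a cmt3 DMR, 47.9% in a met1 DMR and 40.8% outside all DMRs.

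Across all 23260 bins, log2 scaled coverage of cmt3 and met1-3 correlated with a Pearson r of 0.84, against 0.90 for cmt3 with Col-0 and 0.88 for met1-3 with Col-0. Neighbouring bins share fragments, all 3 profiles share the underlying sequence, and depth differs, so these are descriptions only. Over the other scalings, summaries, bin sets and separately scaled regions tried, cmt3 over met1-3 stayed below 0 in cmt3 DMRs alone (-0.96 to -0.23). By Col-0 coverage it varied more there. It was -2.57 above 0 and under 2, -0.07 at 20 to under 50 (chromosomes -0.17 to 0.02), and 0.34 in 72 bins at 50 or more. In protein-coding genes it was -1.0. In met1 DMRs alone it stayed above 0 over the same alternatives (0.32 to 0.78). With the common scaling it was 0.24 in the arms of that class and 0.04 in its 33 bins of other RNA genes. By range of Col-0 coverage that class was lowest at -0.03, in bins above 0 and under 2. In DMRs of both it was between -0.11 and 0.61 over the alternatives, and lower where Col-0 coverage was under 10.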

How the data were processed

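Per the labels, the deposited tables hold read counts at each base of windows around DMRs, with both replicates of a genotype combined. The deposited values are whole-number H3 coverage (signal) with no normalization found in them. The submitters' processing notes give TAIR10 and name Bowtie2, Picard, Bismark and methylKit without roles. Fragment filters and the DMR calling rule are not given in the sources used here. Each window spans a DMR of 100 bp and 500 bp on each side. Bases that recurred between windows of a genotype held equal values everywhere, as did Col-0 bases of the cmt3 and met1 tables.

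From these, means over 50 bp bins on the common grid, log2 ratios of summed scaled coverage, and shares past 2-fold with a pseudocount of 1 were computed. Bins counted as inside a DMR when all their bases were. Pericentromeres were chromosome 1 from 12 to 18 Mb, chromosome 2 from 1 to 7, chromosome 3 from 10 to 17, chromosome 4 from 2 to 6 and chromosome 5 from 9 to 16. No count model was run, since no replicate columns exist and each fragment covers many bases. Single bins were named by rule: within a cmt3 or met1 DMR, where Col-0 coverage reached 20 (or cmt3 and met1-3 together did, for their ratio), the 4 highest and 4 lowest of each comparison, at most 1 per 5 kb. Members, lists, loci and rules were chosen with earlier results of these data known. Gene names came from RefSeq's TAIR10.1 table, matched by locus tag, with no coordinates printed from it. Depth was low, at a mean of 4.66 to 11.8 fragments per base, which limits single bins most. Scaling and the ratio of sums were tested on simulated data. Outside DMRs the simulated bins differed from Col-0 in depth alone. So the test cannot tell how the scaling fares with the gradient by Col-0 coverage seen in the data. Other scalings, summaries, pseudocounts, coverage minimums, bin widths, regions and contexts were tried. Base composition was not analysed here. The tools were scipy 1.17.1, pandas 2.3.3, numpy 2.4.6 and matplotlib 3.10.9 under Python 3.11.15.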

Additional observations from a re-analysis of the deposited data

How the results depend on the processing

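No paired analysis was possible because each table combines both replicates, and for the same reason no replicate was left out. Base composition was not analysed here. Ratios are log2 and given in the order cmt3 over met1-3, cmt3 over Col-0, met1-3 over Col-0 unless named. Of 171 alternatives for the class values, 116 stayed within 1 SD over chromosomes of the reported value, 47 moved further and 8 changed sign. All 45 that left out a chromosome are among the 116. They could hardly move further, since leaving out 1 of 5 chromosomes shifts a value little against the SD over all 5, so they are no check. The 96 for named bins kept their direction. Except where said, causes were not tested. In cmt3 DMRs alone (reported -0.52, -0.36, 0.16), TMM gave -0.23, -0.29 and -0.060. The median over bins gave -0.83, -0.66 and 0.11, and the mean over bins -0.96 and -0.80. Pericentromeres gave -0.45, -0.25 and 0.20, arms -0.66, -0.62 and 0.042, and a Col-0 coverage of 10 to under 20 (chosen after seeing the data) -0.89, -0.58 and 0.31. For cmt3 over met1-3 and met1-3 over Col-0, distant outside bins gave -0.33 and -0.061, and 100 bp bins -0.39 and 0.033. The median ratio gave -0.56 for cmt3 over Col-0 and -0.053 for met1-3 over Col-0. CHG and CG DMRs only gave -0.40 and -0.25 for cmt3 over met1-3 and over Col-0, and scaling outside cmt3 and met1 DMRs only gave 0.18 for met1-3 over Col-0. In met1 DMRs alone (0.50, 0.08, -0.42), TMM gave 0.78, 0.15 and -0.64. Distant outside bins gave 0.69 for cmt3 over met1-3 and -0.64 for met1-3 over Col-0, the median ratio -0.12 for cmt3 over Col-0 and -0.63 for met1-3 over Col-0, and the median over bins 0.32 for cmt3 over met1-3 and 0 for cmt3 over Col-0. The mean over bins gave -0.071 for cmt3 over Col-0, and a Col-0 coverage of 10 to under 20 gave 0.25 for cmt3 over Col-0 and -0.26 for met1-3 over Col-0. In DMRs of both (0.32, -0.06, -0.39), TMM gave 0.61, 0.0059 and -0.61 and a Col-0 coverage of 10 to under 20 gave -0.11, -0.14 and -0.026. Distant outside bins gave 0.52 for cmt3 over met1-3 and -0.61 for met1-3 over Col-0, and the median over bins gave 0 and -0.27 for these. The median ratio gave -0.26 for cmt3 over Col-0 and -0.60 for met1-3 over Col-0. For cmt3 over met1-3 and over Col-0, arms gave 0.082 and -0.23 and the mean over bins 0.016 and -0.36, and CHG and CG DMRs only gave 0.0064 for cmt3 over Col-0. Of 42 alternatives for counts of bins past 2-fold, 30 stayed within 1.5 times. The counts shrank, by construction, with a pseudocount of 5, to 1203 higher and 1813 lower for cmt3 over met1-3, 212 and 943 for cmt3 over Col-0, and 708 and 1045 for met1-3 over Col-0. With a summed coverage of at least 10 they were 1707 and 1939, 506 and 1400, and 1007 and 1473 in the same order. Depth limits single bins: at a mean of 4.66 fragments in met1-3 a bin near 0 cannot be told from one of low coverage.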

Other observations

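At 1 place coverage was found in the mutants and not in Col-0, noticed while the gene values were read. In protein-coding AT3G48230 (chromosome 3), the adjacent bins 17857451 to 17857500 and 17857501 to 17857550 each held 14 unscaled fragments per base in cmt3, 5 in met1-3 and 0 in Col-0. The drm2 libraries held 35.4 and 37.8 there. Over the 20 shared bins of that gene the unscaled means were 2.16 in cmt3, 0.746 in met1-3 and 0.005 in Col-0. No other bin at 0 in Col-0 held 10 or more fragments in the 2 mutants together.

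In 232 bins inside a drm2 DMR only, scaled coverage averaged 24.1 in cmt3, 15.2 in met1-3 and 22.1 in Col-0. Their cmt3 over met1-3 value was 0.66 (chromosomes 0.46 to 1.07), with 22.8% of bins higher and 3.02% lower in cmt3 by 2-fold or more. The ratio to Col-0 was -0.54 in met1-3 (-1.07 to -0.45) and 0.12 in cmt3 (-0.20 to 0.27). So met1-3 was below Col-0 here too, where no met1 DMR was called. The drm2 bins mix coverages, with a Col-0 median of 14 and 20.3% of bins at 0 in Col-0. For comparison, met1-3 over Col-0 in bins outside all DMRs was 0.07 at a Col-0 coverage of 10 to under 20. It was -0.18 at 20 to under 50 and -0.52 at 50 or more. The part of coverage in this deficit was not tested.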
